A study of Mus musculus with 2 samples.

Results

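Chromatin accessibility was examined at 45 genes of the Wnt pathway, of 21951 protein-coding genes annotated in the mouse. They were the 19 Wnt ligands, 12 receptors and co-receptors, 4 genes of β-catenin and its destruction complex, the 4 TCF/LEF transcription factors, 3 secreted inhibitors and 3 genes of the R-spondin arm. The genes were chosen for their roles in the pathway and not from measured values, although earlier results of these data were known. Each was given the intervals of open chromatin that overlapped its transcription start site (TSS), and all other intervals for which its TSS was the nearest of any protein-coding gene. This rule gave 616 of 119502 intervals, of which 41 overlapped a TSS of the 45 genes and 575 were distal, meaning that they overlapped no protein-coding TSS.

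Wnt proteins are secreted, lipid-modified ligands that bind Frizzled receptors and the co-receptors Lrp5 and Lrp6. In the canonical branch, binding stops the destruction complex of Axin, APC, GSK3 and CK1 from marking β-catenin for degradation, and β-catenin then enters the nucleus and acts with TCF/LEF factors at target genes, among them Axin2. In the embryonic spinal cord, Wnt ligands come mostly from the dorsal midline, where they promote proliferation and dorsal identity, while a Sonic hedgehog (Shh) gradient patterns the ventral side, where motor neuron progenitors (pMN) arise. Open chromatin at a gene is a state of its DNA and not a measure of its transcription.

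The data were 2 ATAC-seq libraries of 1 group, so no condition was compared. ATAC-seq marks open chromatin by inserting sequencing adapters with the Tn5 transposase. The cells were live mouse neural progenitors sorted for mKate2, a red fluorescent protein that an embryonic stem cell line expresses together with Olig2, a pMN transcription factor, so 1 engineered line stands for all progenitors here. Per the study, a reporter sort of this kind also takes in motor neurons that have just formed and some cells with both OLIG2 and NKX2.2, so the levels are those of a mixed population. All cells had the same culture: bFGF with 5 μM LGK from day 0 to day 2; bFGF, SB-431542, DMH1 and 5 μM CHIR99021, a GSK3 inhibitor that activates canonical Wnt signalling, for 20 h from day 2 to day 3; then 100 nM retinoic acid and 100 nM SAG, a Shh pathway agonist, from day 3 until harvest at day 5. No culture without the Wnt-directed agents was among the samples, so an effect of these agents on the levels cannot be told apart from the rest of the culture. Each transposition used 50000 cells, and the labels do not say whether the replicates came from separate cultures.

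The libraries held 31876165 and 31672240 counts in intervals. Counts were divided by a size factor for each library and by interval length, and the resulting level, normalised counts per kb, is called density below. Values are the mean and SD of the 2 replicates. The TSS density was 946 ± 23.2 (SD, n = 2) at Olig2, the gene that carries the reporter. At other genes of these progenitors it was 1452 ± 27.3 at Nkx6-1, 862 ± 25.8 at Sox2 and 187 ± 3.57 at Pax6 (SD, n = 2). For Pax6, 3 intervals covered annotated transcript starts, and the value is for the 1 at the 5′ end of the gene. Among genes of other tissues, the liver gene Alb and the globin gene Hbb-bs had no TSS interval, and the muscle gene Myod1 had a density of 172 ± 9.96 (SD, n = 2). In bulk samples, a site open in fewer cells and a site less open in every cell cannot be told apart.

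Most Wnt pathway promoters lay in open chromatin. A TSS interval was present at 41 of the 45 genes (91.1%), against 61.5% of all protein-coding genes. All 12 receptors, all 4 TCF/LEF genes, all 3 inhibitors and all 3 R-spondin arm genes had one, as did 16 of 19 ligands. The genes without one were the ligands Wnt7b, Wnt8a and Wnt8b and the β-catenin gene Ctnnb1. For 2 of these, intervals covered other annotated starts of the gene. Ctnnb1 had an interval over another annotated transcript start, at chr9:120932943-120935051 in its UTR, with 1331 counts in replicate 1 and 1191 in replicate 2 and a density of 598 ± 47.3 (SD, n = 2). The promoter window of Ctnnb1 in RefSeq, chr9:120933150-120933399, lay inside this interval and held 35 CpGs. The 0 given to Ctnnb1 below thus stems from the gene-level start and not from a promoter without an interval. Wnt7b had 3 intervals over starts of its other transcripts, with a combined density of 208 ± 3.59 (SD, n = 2), and its nearest interval edge lay 101 bp from the gene-level TSS. Wnt8a and Wnt8b had none over any annotated start, and their nearest intervals lay 791 and 3283 bp away. The table lists called intervals only, so a gene without an interval is not thereby shown to be closed.

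Promoters of the ligands were less open than those of their receptors. Over all 45 genes, with those lacking a TSS interval at 0, the median density was 558 ± 9.46 (SD, n = 2), against 402 ± 8.20 over all protein-coding genes. It was 345 ± 10.6 for the 19 ligands and 1041 ± 13.0 for the 12 receptors, a ratio of 3.01 ± 0.0547 (SD, n = 2 replicates). In 8 of the 12 receptors the density was above that of every ligand, and 9 of the 19 ligands lay below every receptor. The median of all protein-coding genes was exceeded by 7 of 19 ligands and 11 of 12 receptors. That median includes the genes at 0. Over genes with a TSS interval only, the order turned, with 621 ± 20.1 for the Wnt genes and 883 ± 19.2 for all (SD, n = 2). The 16 ligands with a TSS interval then had 360 ± 18.1 (SD, n = 2). The level of 883 was exceeded by 1 ligand and 8 receptors. The median TSS interval was 2202 bp in ligands, 2240.5 bp in receptors and 1237 bp in all genes. Counted per gene and not per length, the ratio of medians was 3.56. No test was made over genes, which are not replicates.

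**Figure D1:**
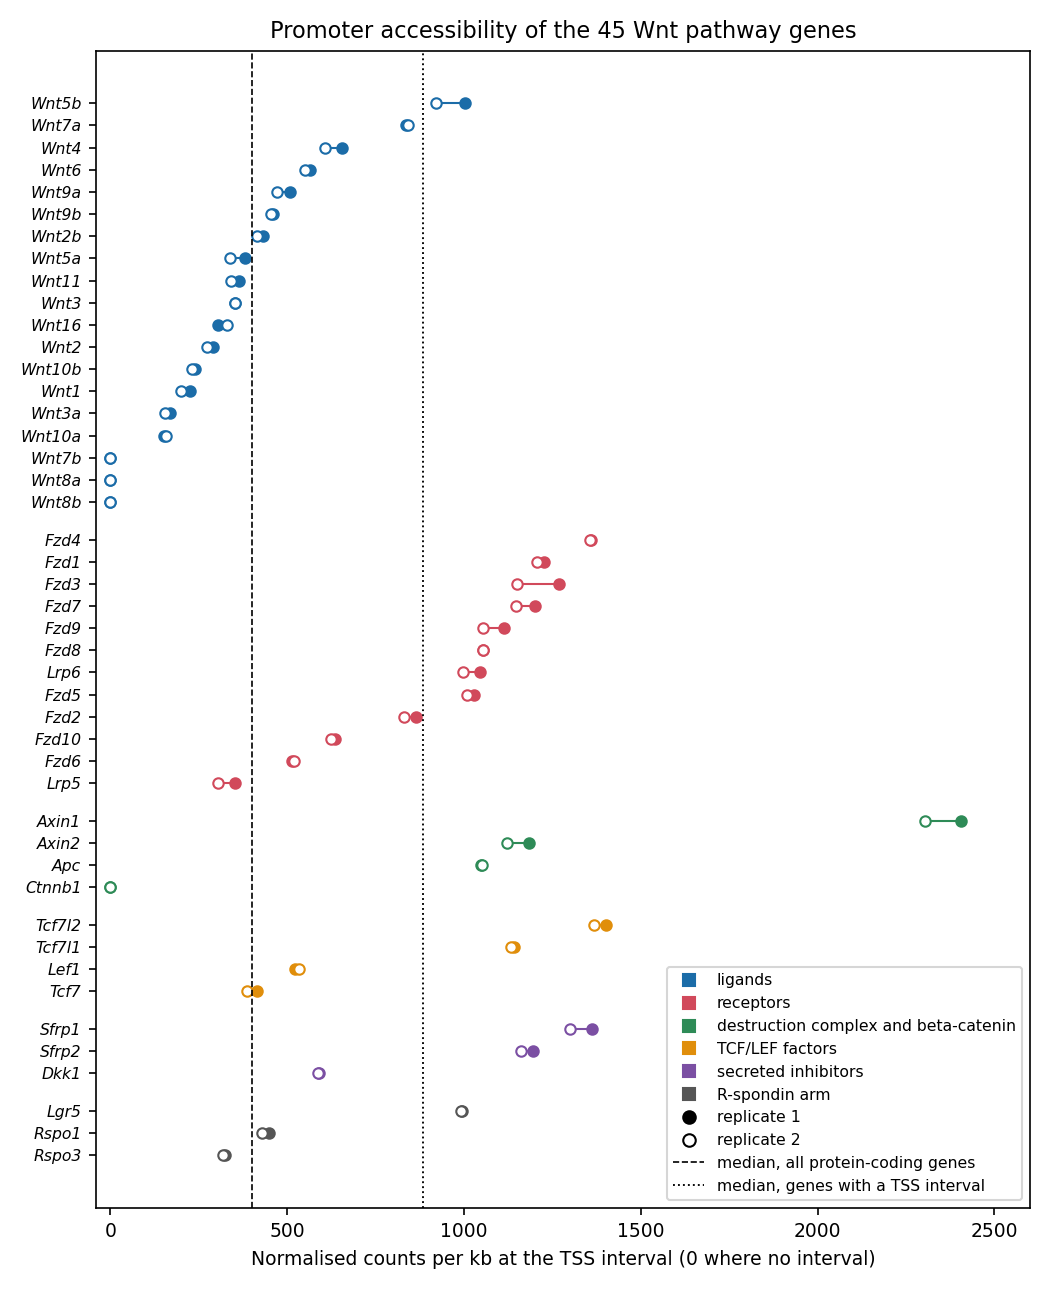
Density at the TSS interval of each of the 45 genes, in normalised counts per kb, with 1 filled point for replicate 1 and 1 open point for replicate 2 and with genes grouped by role. Dashed and dotted lines mark the medians of all protein-coding genes (402) and of genes with a TSS interval (883); ligands lie mostly left of the dashed line, receptors mostly to the right of it, and Axin1 stands highest at 2354.

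Among the ligands, Wnt5b and Wnt7a were the most open. Wnt5b, which acts mainly through non-canonical branches, had 1563 and 1437 counts over its TSS interval at chr6:119543455-119545013 and a density of 962 ± 57.7 (SD, n = 2). Wnt7a, a ligand known for its part in neural and limb patterning, had 2117 and 2132 counts and 840 ± 3.71 (SD, n = 2). The replicates of Wnt5b ranged from 921 to 1003 and those of Wnt7a from 837 to 842, so Wnt5b was above Wnt7a in both libraries. This order turned when every annotated transcript start was used, with 746 at Wnt5b and 840 at Wnt7a. Wnt4, known for roles in kidney and gonad, had 631 ± 33.9, and Wnt6 had 558 ± 9.46 (SD, n = 2). Wnt1 and Wnt3a, ligands of the roof plate, were lower, as were several other ligands. Wnt1 had 792 and 698 counts spread over 3506 bp, a density of 212 ± 19.1 (SD, n = 2). Wnt3a, with 374 and 344 counts, had 161 ± 9.59 (SD, n = 2). Wnt10a was the lowest of the 16 with a TSS interval, at 154 ± 3.40 (SD, n = 2), with 123 and 127 counts at chr1:74791405-74792214. Wnt5a, the non-canonical ligand of axis elongation, had 360 ± 30.9, Wnt11 352 ± 15.0, Wnt3 352 ± 0.818 and Wnt16 317 ± 19.2 (SD, n = 2). The replicate ranges of Wnt5a, Wnt11 and Wnt3 overlapped, and Wnt16 lay below them. With every annotated transcript start, Wnt11 had 536. The remaining ligands with a TSS interval, Wnt2, Wnt2b, Wnt9a, Wnt9b and Wnt10b, ranged from 235 to 491.

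Several Wnt genes sit beside each other as old tandem copies, and 4 such pairs were among the ligands, with no other protein-coding TSS between the partners. Wnt6 and Wnt10a, on the same strand of chromosome 1 with starts 19.6 kb apart, differed most, at 558 against 154. Wnt3a and Wnt9a, divergent on chromosome 11 and 16.2 kb apart, had 161 and 491. Wnt9b and Wnt3, divergent on the same chromosome and 24.3 kb apart, had 457 and 352. Wnt10b and Wnt1, divergent on chromosome 15 and 11.7 kb apart, had 235 and 212. With intervals within 1 kb or with every transcript start, Wnt10b had 373 and Wnt1 still 212. In each pair the replicate ranges of the partners did not overlap. From start to start, with the TSS intervals of both partners included, the pairs held 4, 6, 6 and 3 intervals. Of these 4, 2, 4 and 2 had a mean normalised count over 100. At Wnt3a and Wnt9a, and at Wnt10b and Wnt1, the 2 over this limit were the TSS intervals themselves.

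Frizzled genes encode the 7-pass receptors that bind Wnt through a cysteine-rich domain. Fzd4, which also binds the ligand norrin, was highest, with 2567 and 2563 counts at chr7:89403433-89405322 and a density of 1357 ± 2.28 (SD, n = 2). Its interval also overlapped the TSS of the divergent gene Tmem135, so the level cannot be assigned to either gene alone. Fzd1 followed with 1217 ± 12.7, Fzd3, a receptor known for axon guidance and planar polarity, with 1210 ± 84.6, and Fzd7 with 1174 ± 39.8 (SD, n = 2). Fzd3 had the widest replicate spread of the receptors, from 1150 to 1270, which overlapped those of Fzd1 and Fzd7. Fzd9, Fzd8, Lrp6 and Fzd5 lay between 1018 and 1083. Fzd2 had 847 ± 22.7, Fzd10 630 ± 7.87 and Fzd6 516 ± 4.10 (SD, n = 2). The co-receptors lay far apart. Lrp6 had 1891 and 1804 counts and 1021 ± 34.6, whereas Lrp5 had 831 and 720 counts and 329 ± 33.4 (SD, n = 2), the lowest receptor, at chr19:3684563-3686922.

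Of the destruction complex, Axin1 stood at the top of all 45 genes. Axin1, the scaffold of the complex, had 2806 and 2688 counts at chr17:26138244-26139410 and a density of 2354 ± 72.9 (SD, n = 2), at percentile 98.2 of protein-coding genes. Axin2, its paralogue and a feedback target of canonical signalling, had 2594 and 2460 counts over 2193 bp and 1152 ± 43.9 (SD, n = 2). Apc, which binds β-catenin in the complex, had 1430 and 1437 counts and 1049 ± 3.02 (SD, n = 2). All 3 were above the median of 883 ± 19.2 (SD, n = 2) over genes with a TSS interval, which 17 of the 41 Wnt genes with such an interval exceeded.

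The TCF/LEF genes split into a higher and a lower pair. Tcf7l2 had 997 and 975 counts in a short interval at chr19:55741247-55741958 and a density of 1385 ± 22.6, and Tcf7l1, the member known mostly as a repressor, had 1138 ± 5.34 (SD, n = 2). Lef1, usually an activator, had 1505 and 1539 counts and 529 ± 8.05, and Tcf7 had 788 and 735 counts and 401 ± 19.9 (SD, n = 2). The lowest replicate of the higher pair, 1134, was above the highest of the lower pair, 535. The level of Tcf7l2 rests on the start used, since it was 817 with intervals within 1 kb and 732 with every annotated transcript start. Among the secreted inhibitors, Sfrp1 and Sfrp2, which bind Wnt ligands outside the cell, had 1331 ± 44.9 and 1178 ± 24.2 (SD, n = 2). Sfrp1 lies on chromosome 8, where the median TSS density was 1.41 times that of the other autosomes, and the part of this in its level was not tested. Dkk1, which blocks the Lrp co-receptors, had 687 and 686 counts and 589 ± 0.947 (SD, n = 2). In the R-spondin arm, Lgr5, a receptor for R-spondins and a stem cell marker, had 1699 and 1698 counts and 993 ± 0.988 (SD, n = 2). The ligands Rspo1 and Rspo3, which stabilise Wnt receptors, had 439 ± 15.5 and 321 ± 3.13 (SD, n = 2). Along the whole order, the replicate ranges of 18 of 40 neighbouring pairs of genes overlapped.

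Another 43 genes of the pathway gave the setting for these values. A TSS interval was present at 41 of them, all but Vangl2 and Dkk4, and 33 of 43 were above the median of all protein-coding genes, against 29 of the 45. Their median density was 677 ± 21.8 (SD, n = 2). The median of genes with a TSS interval, 883, was exceeded by 14 of these 41, against 17 of the 41 Wnt genes. The kinase gene Gsk3b had 3284 ± 13.0, Btrc, whose product carries β-catenin to the proteasome, 2605 ± 18.2, and Pygo2, a nuclear co-factor of β-catenin, 2398 ± 71.0 (SD, n = 2). The first 2 were above Axin1 in both replicates, and the range of Pygo2 overlapped that of Axin1. At the other end were Dkk3 with 202 ± 8.86 and Rnf43, an E3 ligase that removes Frizzled from the membrane, with 218 ± 13.6 (SD, n = 2). Porcn and Wls, needed for acylation and secretion of every Wnt, had 623 ± 5.40 and 586 ± 4.93 (SD, n = 2).

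The base composition of the TSS intervals moved with density. Mammalian promoters are often CpG islands, in which the CpG dinucleotide is not depleted. Across the 41 intervals, density and the ratio of observed to expected CpG had a Spearman rho of 0.64 and, with log2 density, a Pearson r of 0.58, given as a description across genes of the same libraries. Over all 13500 genes with a TSS interval they were 0.48 and 0.59. For GC content the rho over the Wnt genes was 0.41, and for interval length it was -0.17. The median ratio was 0.670 in ligands and 0.771 in receptors. Transposase and amplification preferences for base composition were not tested.

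**Figure D2:**
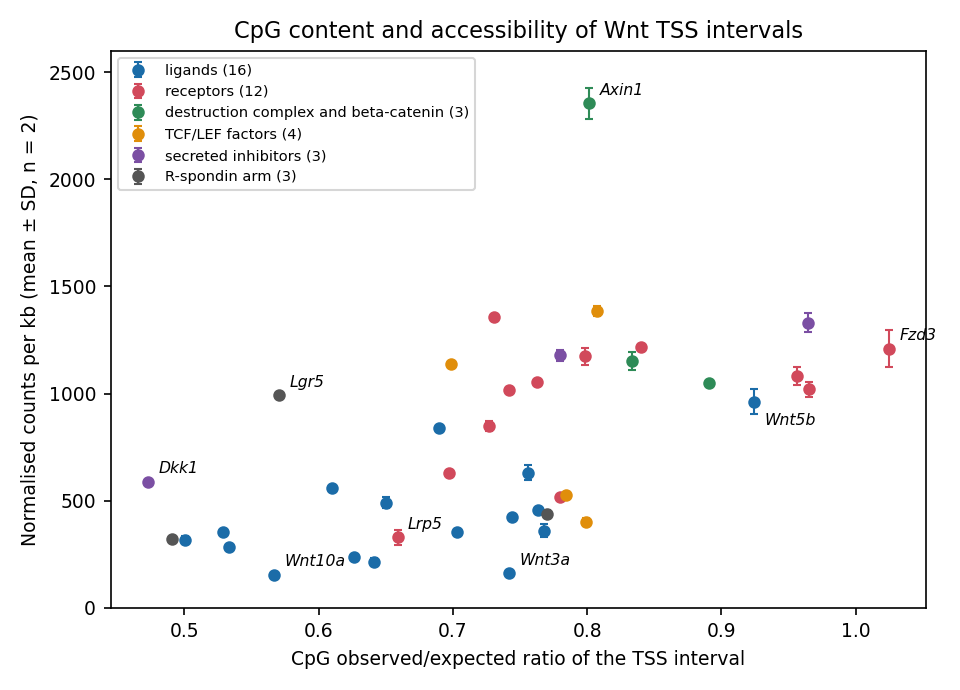
CpG observed to expected ratio of each of the 41 TSS intervals against its density in normalised counts per kb, with bars for the SD of 2 replicates and colours for role. Density tends to be higher at CpG-rich intervals; Axin1 (2354) lies above the rest, and Wnt3a (161) and Wnt10a (154) lie at the bottom.

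RefSeq promoter sequences were at hand for 30 of the 45 genes. The 3 shown are the 250 bases before the RefSeq start, picked among genes with a sequence. Tcf7l2 had the highest density at the gene-level TSS among them. Wnt3a had the lowest density of their ligands with a TSS interval, and Wnt8b is a ligand without one. Wnt10a, lower than Wnt3a, had no sequence. Bases run 5′ to 3′ on the strand of the gene in GRCm38.p6, with every CpG in capitals. The windows are chr19:55741560-55741809 (plus strand), chr11:59290752-59291001 (minus strand) and chr19:44493222-44493471 (plus strand).
Tcf7l2: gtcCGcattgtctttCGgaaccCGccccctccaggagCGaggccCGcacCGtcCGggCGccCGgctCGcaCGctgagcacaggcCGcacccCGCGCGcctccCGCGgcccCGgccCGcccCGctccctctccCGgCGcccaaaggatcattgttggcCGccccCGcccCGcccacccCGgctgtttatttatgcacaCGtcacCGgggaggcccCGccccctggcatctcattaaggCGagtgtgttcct
Wnt3a: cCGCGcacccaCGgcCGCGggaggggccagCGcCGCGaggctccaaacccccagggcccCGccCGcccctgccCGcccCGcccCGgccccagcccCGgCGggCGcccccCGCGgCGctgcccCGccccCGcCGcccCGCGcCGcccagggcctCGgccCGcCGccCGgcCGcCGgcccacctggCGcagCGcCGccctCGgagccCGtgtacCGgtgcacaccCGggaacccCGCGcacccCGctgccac
Wnt8b: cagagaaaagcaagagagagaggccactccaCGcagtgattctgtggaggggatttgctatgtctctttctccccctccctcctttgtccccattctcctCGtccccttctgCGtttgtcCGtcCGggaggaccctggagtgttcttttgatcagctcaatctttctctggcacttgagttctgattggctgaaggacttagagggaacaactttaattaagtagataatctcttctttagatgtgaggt
Tcf7l2 held 30 CpGs and Wnt3a 41, whereas Wnt8b held 5, against a median of 6 over the same 250 bases of all 32815 windows in the table. A CpG-rich window was thus present at a dense and at a sparse TSS interval.

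Away from promoters, the Wnt genes had many more intervals than the usual gene. The median was 11 distal intervals per Wnt gene against 2 for all protein-coding genes. With TSS intervals included it was 12 against 3, and 42 of the 45 were above 3. Of the 616 intervals, 256 (41.6%) had a mean normalised count over 100, a limit that sets aside weakly covered intervals, against 38.8% of all intervals. Among the distal ones it was 215 of 575 (37.4%) against 32.4%, with 41.1% at ligands, 39.3% at receptors, 36.5% at TCF/LEF genes, 40.4% at inhibitors, 26.1% at the destruction complex and 25.0% at the R-spondin arm. The median density was 139 ± 1.86 at distal Wnt intervals and 126 ± 2.05 at all distal intervals (SD, n = 2). The count per gene rests on which genes may claim an interval. When all annotated genes, noncoding ones included, could claim intervals, 247 were assigned to the Wnt genes. No value over all genes is given here under that rule.

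**Figure D3:**
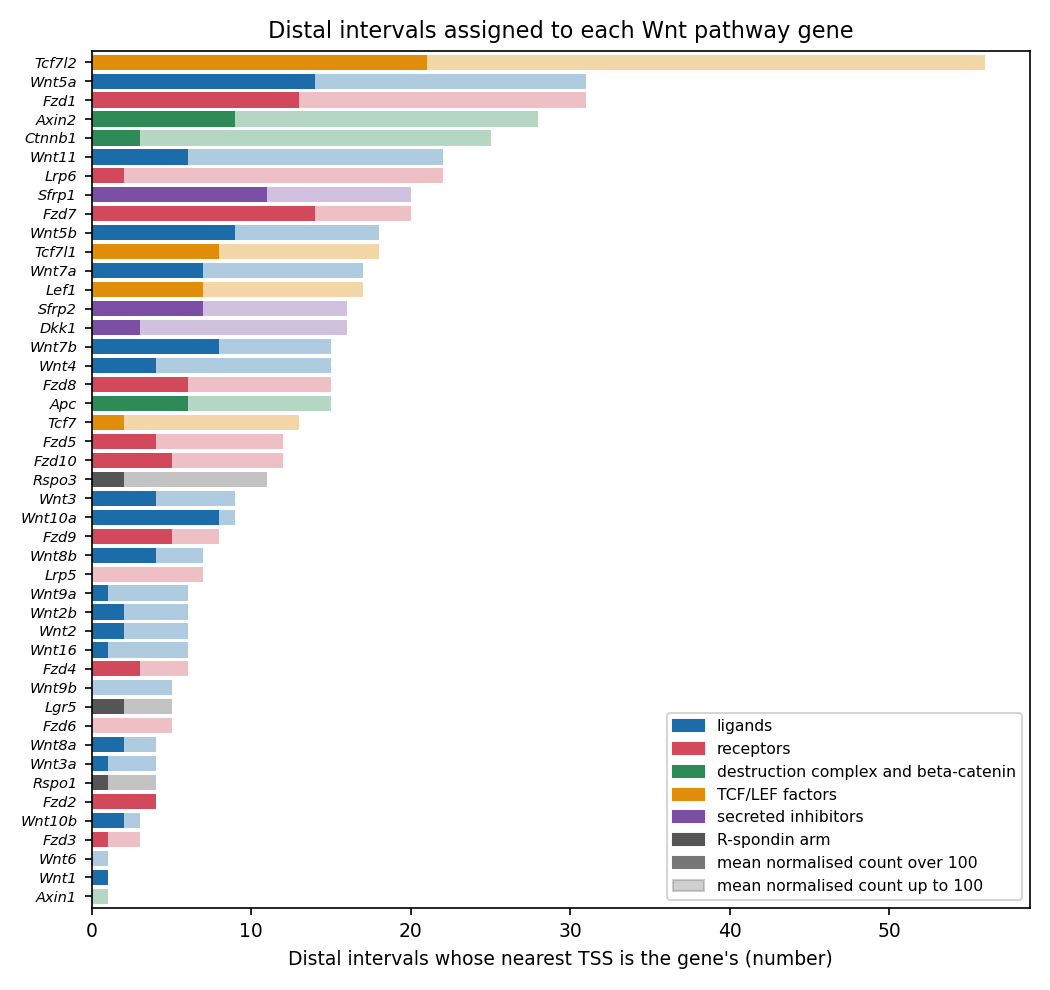
Number of distal intervals assigned to each of the 45 genes, with full colour for intervals with a mean normalised count over 100, pale colour for the others, and hue for role. Tcf7l2 has the most, and Wnt1, Wnt6 and Axin1 have 1 each.

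Tcf7l2 had the most intervals, 57, of which 22 were over 100 counts. Wnt5a and Fzd1 had 32 each, with 15 and 14 over 100. Axin2 had 29 with 10 over 100, and Ctnnb1 25 with 3. Those of Ctnnb1 include the interval over its RefSeq promoter. These 5 genes held 171 of the 575 distal intervals. At the other end Wnt1, Wnt6 and Axin1 had 2 intervals each. Distal intervals were about evenly placed, with 296 upstream and 279 downstream of the TSS, and their median distance was 44.2 kb against 45.5 kb for all distal intervals. A distance of at most 10 kb was found for 82, and 143 (24.9%) were over 100 kb away, against 30.2% of all. By annotation, 263 were intergenic and 235 intronic, 114 of the latter in an intron of the gene they were assigned to. Another 35 touched a coding exon, 31 a noncoding exon and 11 a UTR, and 23 covered the start of some annotated transcript. The nearest TSS is a rule of position, and whether an interval acts on that gene was not measured.

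**Figure D4:**
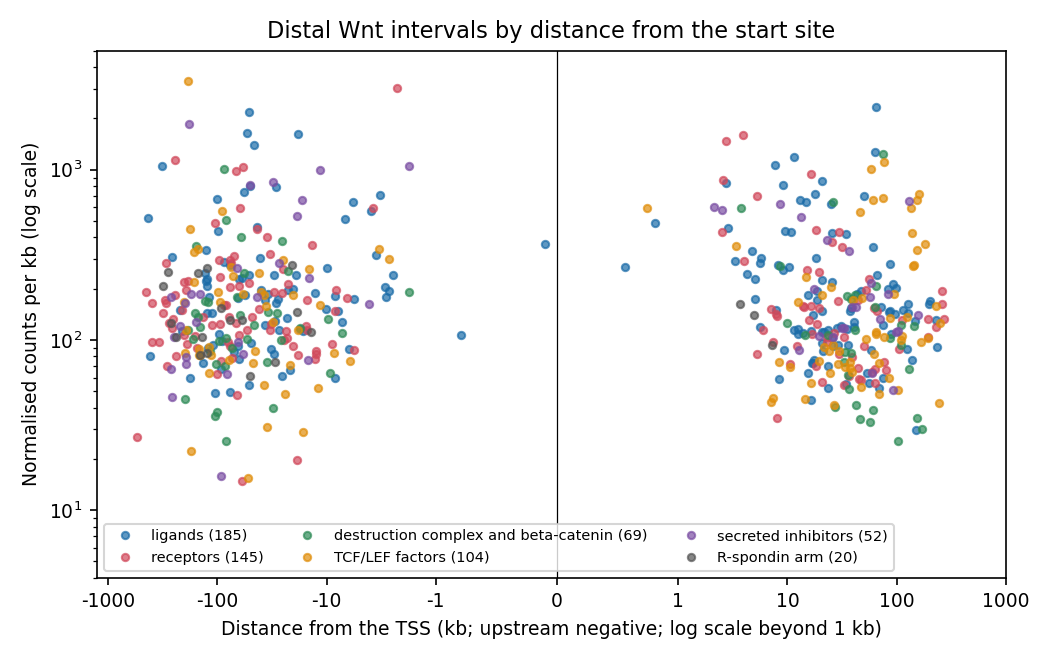
Density of the 575 distal Wnt intervals, in normalised counts per kb on a log scale, against the distance of their nearest edge from the TSS in kb, upstream to the left, with colours for role. The densest lie at -185 kb for Tcf7l2 (3307), -2.28 kb for Fzd9 (3031) and 64.5 kb for Wnt7a (2323).

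Some distal intervals were more open than any Wnt promoter. The densest, at chr19:55556245-55557158, lay 184.7 kb upstream of Tcf7l2 in an intron of the neighbouring gene Vti1a, with 2981 and 3065 counts and a density of 3307 ± 63.1 (SD, n = 2), rank 62 of all intervals. The second lay 2.28 kb upstream of Fzd9 at chr5:135253508-135254445, with 2750 and 2937 counts and 3031 ± 139 (SD, n = 2). The third was intergenic, 64.5 kb downstream of the start of Wnt7a at chr6:91345567-91346906, with 3001 and 3224 counts and 2323 ± 116 (SD, n = 2). The first 2 of these exceeded Axin1, the densest Wnt promoter, in both replicates. Since they carry the strongest signal at these genes, the central 300 bases of each follow, plus strand of mm10, at chr19:55556552-55556851, chr5:135253827-135254126 and chr6:91346087-91346386. Capitals mark the SOX strings ACAATG or ACAAAG on either strand.
Tcf7l2 upstream: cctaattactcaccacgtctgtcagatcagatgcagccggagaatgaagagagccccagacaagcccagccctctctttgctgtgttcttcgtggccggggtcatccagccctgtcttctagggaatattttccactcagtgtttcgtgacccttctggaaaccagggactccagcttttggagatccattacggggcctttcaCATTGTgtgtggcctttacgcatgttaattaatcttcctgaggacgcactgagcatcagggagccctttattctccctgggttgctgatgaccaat
Fzd9 upstream: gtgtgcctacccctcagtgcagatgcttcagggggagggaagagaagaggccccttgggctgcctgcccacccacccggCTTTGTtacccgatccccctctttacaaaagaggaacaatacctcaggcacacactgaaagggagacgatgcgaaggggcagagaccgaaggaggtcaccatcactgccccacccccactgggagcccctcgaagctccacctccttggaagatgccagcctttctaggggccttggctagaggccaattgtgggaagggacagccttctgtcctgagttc
Wnt7a downstream: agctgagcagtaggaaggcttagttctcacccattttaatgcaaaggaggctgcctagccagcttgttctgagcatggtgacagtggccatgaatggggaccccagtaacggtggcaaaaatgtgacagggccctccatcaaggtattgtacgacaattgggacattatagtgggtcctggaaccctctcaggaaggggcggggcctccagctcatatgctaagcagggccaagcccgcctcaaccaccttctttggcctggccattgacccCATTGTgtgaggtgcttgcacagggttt
Each held 1 SOX string and none held a TCF/LEF string. SOX strings were common in general, at 48.9% of distal Wnt windows and 48.1% of all distal windows.

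Further strong elements lay at ligands and inhibitors. An interval 51.9 kb upstream of Wnt7b, a ligand of kidney, lung and nervous system, at chr15:85634330-85635272, had 2092 and 2036 counts and 2189 ± 43.3, far above the intervals at that gene's own starts. One 182.5 kb upstream of Sfrp2, at chr3:83582665-83583827, had 1856 ± 67.0 (SD, n = 2). At Axin2 the densest lay 74.4 kb downstream of the start, intergenic at chr11:108994760-108995812, with 1318 and 1300 counts and 1243 ± 12.8 (SD, n = 2). In the R-spondin arm the densest, 20.6 kb upstream of Rspo1, had only 214 and 236 counts and 275 ± 18.9 (SD, n = 2).

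At many ligands the densest distal interval had a higher density than the promoter. Among genes with a TSS interval, 20.9% of all 13500 had such a distal interval. It was found for 12 of 16 ligands, 3 of 12 receptors, 1 of 3 destruction complex genes, 2 of 4 TCF/LEF genes, 2 of 3 inhibitors and 0 of 3 R-spondin arm genes, 20 of 41 in all (48.8%). Over all genes the share moved with the number of distal intervals. Among genes with at least 11, the median of the Wnt genes, it was 44.8% of 2266 genes. There it was 11 of 21 Wnt genes (52.4%), near that background. The Wnt share was thus much the same with and without this limit, while that of all genes was 20.9% without it. Wnt genes with fewer distal intervals therefore lay further above all genes than those with many. Of the 16 ligands, 5 had at least 11, and 4 of these 5 had a denser distal interval. Leaving out distal intervals that cover an annotated transcript start gave 20 as well. Wnt10a was the clearest case. Its TSS interval held 2.68% of the normalised counts assigned to it, and 8 of its 9 distal intervals were over 100 counts, among them one over a coding exon 11.5 kb from the start with 981 and 917 counts and 1192 ± 57.5 (SD, n = 2). Wnt1 had a single distal interval, intergenic and 7.71 kb downstream of the start at chr15:98797570-98799662. It had 2218 and 2268 counts and 1072 ± 16.3 (SD, n = 2), against 212 ± 19.1 at its TSS. Density is per kb, and 62.5% of ligand and 58.3% of receptor TSS intervals were over 2 kb, against 12.2% over all genes. Counts gave another order at Wnt2, Wnt2b, Wnt3a, Wnt5b and Wnt9a, where the TSS interval had more than the densest distal one. Wnt9a had 84 and 93 counts over 155 bp at its densest distal interval, against 1630 and 1516 at its TSS interval. For Wnt1, Wnt3, Wnt7a, Wnt10a, Wnt10b and Wnt11 the counts were higher at the distal interval as well. For Wnt5a they were higher there only in replicate 2. In Tcf7l2 the TSS interval held 7.20% of the counts. Of 4 intervals over annotated transcript starts of Tcf7l2, only the 1 at the gene-level TSS entered this share. In Axin1 the TSS interval held 98.7%, in Wnt6 95.1% and in Lgr5 83.2%.

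Whether distal Wnt intervals carry the TCF/LEF sequence was asked next. TCF and LEF proteins bind a short AT-rich string through an HMG box, the fold they share with SOX proteins. The strings CTTTGAT and CTTTGAA were searched on both strands of the central 300 bp. They have CAAAG in common with the SOX string ACAAAG, but the same CAAAG cannot match both. A match was present in 71 of 575 distal Wnt intervals (12.3%, 95% Wilson interval 9.91 to 15.3%), against 11.8% of all distal intervals, a share near the background. By role the share was 9.73% at ligands, 15.9% at receptors, 10.1% at the destruction complex, 10.6% at TCF/LEF genes, 15.4% at inhibitors and 20.0% at the R-spondin arm. Each role's Wilson interval included 11.8%. These bounds treat the windows of 1 gene as independent. For the R-spondin arm, with 4 matches in 20, they ran from 8.07 to 41.6%. Among intervals over 100 counts the share was 14.4%, against 11.2%. Of these 215, 184 had no match, 27 had 1 and 4 had 2. The GLI string ACCACCC, read by effectors of Shh, was in 4.52% against 4.51%, and the E-box CAGCTG or CATATG in 25.6% against 27.2%. The DR5 repeat, a perfect direct repeat read by retinoic acid receptors, was in 0 of 575 (upper Wilson bound 0.664%) and in 0.0764% of all distal windows.

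Intervals with 2 TCF/LEF strings are shown for Wnt3 and Fzd2, since no interval over 100 counts held more, and the Wnt10a window is added as the most strongly covered with 1. They are the central 300 bases on the plus strand of mm10, with the strings in capitals (TTCAAAG and ATCAAAG are the reverse strand forms). The Wnt3 window, chr11:103841281-103841580, lies in an intron of Nsf, 66.5 kb from the Wnt3 start. The Fzd2 window, chr11:102595407-102595706, is intergenic, 8.41 kb upstream, and the Wnt10a window, chr1:74807340-74807639, is intergenic, 14.9 kb from the start.
Wnt3 distal: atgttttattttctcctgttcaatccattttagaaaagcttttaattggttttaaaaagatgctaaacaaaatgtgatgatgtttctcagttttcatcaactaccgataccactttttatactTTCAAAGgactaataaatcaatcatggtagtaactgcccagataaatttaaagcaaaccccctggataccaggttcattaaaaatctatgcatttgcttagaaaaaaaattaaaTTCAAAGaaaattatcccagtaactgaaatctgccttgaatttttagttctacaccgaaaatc
Fzd2 distal: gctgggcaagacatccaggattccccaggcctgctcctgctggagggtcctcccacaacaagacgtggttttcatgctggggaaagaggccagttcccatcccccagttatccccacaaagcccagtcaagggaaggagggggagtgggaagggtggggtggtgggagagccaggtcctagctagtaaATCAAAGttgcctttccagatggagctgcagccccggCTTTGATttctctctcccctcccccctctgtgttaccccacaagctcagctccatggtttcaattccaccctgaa
Wnt10a distal: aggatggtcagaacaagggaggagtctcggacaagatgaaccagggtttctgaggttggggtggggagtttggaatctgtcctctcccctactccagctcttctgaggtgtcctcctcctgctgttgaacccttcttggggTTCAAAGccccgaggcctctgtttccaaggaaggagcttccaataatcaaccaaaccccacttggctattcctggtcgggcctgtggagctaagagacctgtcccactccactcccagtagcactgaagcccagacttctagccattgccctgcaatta
Their intervals had 393 and 382, 125 and 130, and 1433 and 1461 counts in replicates 1 and 2. The Wnt3 and Fzd2 intervals had densities of 239 ± 4.94 and 148 ± 4.01 (SD, n = 2), and the Wnt10a interval 645 ± 8.45 (SD, n = 2). A match is a string of letters and not a measured binding site.

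The replicates were compared last, since they set the error of every value above. The two-sided exact binomial test with Benjamini-Hochberg adjustment over all intervals called 0 of the 616 Wnt intervals at an adjusted p of 0.01, as it called 0% of all 119502. At an unadjusted p under 0.05 there were 55 Wnt intervals (8.93%) and 8.39% of all. At TSS intervals the share was 17.1% for the Wnt genes (7 of 41), 31.2% for the ligands (5 of 16) and 13.6% for all. Chi-square values, per degree of freedom, were 1.77 at Wnt TSS intervals and 1.75 at all TSS intervals, so the libraries differed there by more than counting error. The smallest adjusted p among the Wnt intervals was 0.0531 in this exact test. Over the 256 with a mean normalised count over 100, the SD of the log2 ratio was 0.14, the same to 2 decimals as over all intervals, and 0 differed over 1.5-fold. It was 0.06 at Wnt TSS intervals and 0.15 at distal ones over this limit. The TSS intervals shifted slightly as a group. The normalised count was lower in replicate 2 at 35 of the 41 (85.4%), against 69.1% of all TSS intervals over 100 counts, with a median log2 ratio of -0.04, and the same median over all TSS intervals was -0.04. The largest differences over 100 counts were all distal and all lower in replicate 2. An interval assigned to Ctnnb1 at chr9:120965560-120968196, over a coding exon of Ulk4, had 158 and 113 counts (log2 ratio -0.48). One assigned to Apc had 146 and 105 (log2 ratio -0.48), and one upstream of Fzd7 at chr1:59399740-59401681 had 218 and 162 (log2 ratio -0.43). The last 2, near Wnt7b and Fzd1, had 125 and 93 and 148 and 111 counts, with log2 ratios of -0.43 and -0.42. The adjusted p of these 5 in the exact binomial test ranged from 0.342 to 0.536.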

How the data were processed

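Live mKate2-sorted cells of 1 group were assayed by ATAC-seq in 2 replicates. The authors deposited raw counts of read pairs over consensus intervals. Per the file header these were made with featureCounts 2.0.1, a pair being counted in every interval that it overlapped by at least a fraction of 0.2, so that adjoining intervals can share counts. The methods of the study describe mm10 alignment and MACS peaks at a false discovery rate of 1e-05, kept where 2 replicates shared them. Of 5 count columns, 3 matched none of the samples and were left out, although their peaks helped to define the intervals.

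Each count was scaled by the library's size factor from DESeq2 (1.42.0) and by interval length in kb. The TSS was the 5′ end of the protein-coding gene record in GENCODE M21 on GRCm38.p6, the same assembly as mm10, and distance was measured from the nearest interval edge. Replicates were compared with a two-sided exact binomial test per interval, adjusted by Benjamini-Hochberg over all intervals (limit 0.01), which compares libraries and not conditions. This test assumes counting error alone. Alternatives used edgeR (4.0.16) TMM factors, total counts, other TSS and window definitions, count filters and each replicate alone. Further tools were R 4.3.3, Python 3.11.15, pysam 0.24.0, statsmodels 0.14.6 and scipy 1.17.1. Promoter sequences came from RefSeq.

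The libraries held 31876165 and 31672240 counts without molecular identifiers. The binomial test covers counting error only, and the Wilson intervals cover only the number of windows. The genes, the lists and the tests were chosen with earlier results of these data known. Named were all 45 genes, the extremes of each role, the 5 genes with most intervals, the densest distal intervals and the 5 largest replicate differences. Intervals of Wnt1 and Wnt10a, the Gsk3b, Btrc, Pygo2, Dkk3, Rnf43, Porcn and Wls promoters, and the choice of the 3 promoter sequences, were picked after their values were seen. Fixed cells were not analysed here, and some items that met the rules are not reported here.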

Additional observations from a re-analysis of the deposited data

How the results depend on the processing

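The direction of the difference between receptors and ligands held under each alternative run, all of which were chosen after seeing the data: the ratio of median densities was 2.95 when intervals up to 1 kb away counted as TSS intervals, 2.89 with any transcript start, 3.56 with counts per gene, and 2.98 to 3.05 with 1 replicate left out. The median density of the 45 genes was 577 with any transcript start, 1130 as counts per gene, and 551 to 565 with 1 replicate left out. A TSS interval was found for 43 genes with any transcript start or within 1 kb. The intervals assigned numbered 247 when all annotated genes competed, 546 with any transcript start and 473 within 100 kb. The SD of the log2 replicate ratio was 0.38 (0.385) when intervals with a mean normalised count of at least 10 entered. The TCF/LEF share of 12.3% became 18.4% over whole intervals and 6.26% over the central 150 bp, against 20.5% and 6.10% of all distal intervals. No interval of the Wnt genes passed the exact binomial test under any setting run (0 called). The density of each gene moved by less than the replicate SD under TMM factors and total counts, and beyond it in 8 of 45 genes with any transcript start and in 4 with an interval within 1 kb. The loss of 1 of 2 replicates moves a mean by a fixed share of the SD and says nothing about stability. With 1 replicate left out, neither the binomial test nor the SD of the ratio can be computed. No paired analysis was possible because the labels give 1 group. With 1 culture condition and 2 replicates, no effect of the Wnt-directed agents or of SAG on these genes could be measured.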
